A study of Mus musculus with 2 samples.

Results

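Capillary-marked endothelial cells of the mouse choroid were described from single-cell transcriptomes of the choroid and the retinal pigment epithelium (RPE). The cells were selected on the measured counts of 21 genes: they were endothelial cells in which the summed counts of Kcne3, Esm1, Car4 and Cd300lg, the markers given for choriocapillaris endothelium, reached at least 3 UMIs (unique molecular identifiers, 1 per captured transcript). That sum also had to exceed the sum of 5 arterial markers (Gja5, Gja4, Bmx, Gkn3 and Stmn2) and the sum of 4 venous markers (Selp, Ackr1, Lrg1 and Nr2f2). A cell was endothelial if Pecam1, Cdh5, Egfl7, Esam and Cldn5 summed to 5 or more UMIs and Ptprc, Dcn and Sox10, genes of immune cells, fibroblasts and glia or melanocytes, to 2 or fewer. The rule selected 343 cells of 1114 endothelial cells and of 21898 cells in all, 146 in library 1 and 197 in library 2. A further 134 endothelial cells were arterial-marked, 380 were venous-marked and 257 reached no bed.

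The study held 2 droplet libraries of dissected eye tissue from wild-type mice of the outbred ICR strain at 8 weeks of age, with no treatment. Each library was made from pooled tissue of 1 male and 1 female mouse, so the sexes cannot be told apart within a library. All groups below are groups of cells from these same 2 libraries, and the libraries were the replicates (n = 2). The libraries held 91741168 and 149570817 UMIs in 8497 and 13401 cells.

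The choriocapillaris is the dense capillary sheet that lies directly under the RPE and feeds the photoreceptors. Its endothelium is fenestrated: the pores are spanned by diaphragms built from the protein PLVAP, and their upkeep is known to depend on vascular endothelial growth factor (VEGF) that the RPE secretes and that the capillary cells receive through the receptor KDR. Kcne3 encodes a potassium channel subunit, Esm1 a secreted proteoglycan that VEGF induces in tip cells, Car4 a membrane-bound carbonic anhydrase and Cd300lg a mucin-like receptor of endothelium.

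The 250 bases before a RefSeq start site (GRCm38.p6) are shown for 5 genes: the markers Kcne3 and Esm1 that made up most of the sorting counts, and Apln, Ihh and Ramp3, which lay outside the rule and were higher in these cells than in both other beds. The Kcne3 window spans chr7:100176420-100176669 on the plus strand, that of Esm1 chr13:113209409-113209658 on the plus strand and that of Apln chrX:48034854-48035103 on the minus strand. The Ihh window spans chr1:74951673-74951922 on the minus strand and that of Ramp3 chr11:6658283-6658532 on the plus strand. Capitals mark matches, on either strand, to an ETS core (AGGAAG or its reverse CTTCCT) and to a SOX core (ACAAT or its reverse ATTGT).
Kcne3: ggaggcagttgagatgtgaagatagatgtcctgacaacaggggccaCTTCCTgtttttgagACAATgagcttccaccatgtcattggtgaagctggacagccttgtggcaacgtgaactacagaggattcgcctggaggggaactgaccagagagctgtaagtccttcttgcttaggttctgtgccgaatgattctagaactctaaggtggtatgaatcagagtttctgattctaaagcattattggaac
Esm1: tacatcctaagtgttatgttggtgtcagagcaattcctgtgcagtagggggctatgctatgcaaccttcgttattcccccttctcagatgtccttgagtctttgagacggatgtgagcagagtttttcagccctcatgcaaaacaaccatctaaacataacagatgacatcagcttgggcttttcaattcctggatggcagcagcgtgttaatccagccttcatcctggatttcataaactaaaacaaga
Apln: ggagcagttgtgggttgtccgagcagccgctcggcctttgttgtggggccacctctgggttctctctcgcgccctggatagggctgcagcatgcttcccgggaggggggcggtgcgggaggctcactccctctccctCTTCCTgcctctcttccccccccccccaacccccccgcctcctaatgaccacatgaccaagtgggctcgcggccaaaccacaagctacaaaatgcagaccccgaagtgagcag
Ihh: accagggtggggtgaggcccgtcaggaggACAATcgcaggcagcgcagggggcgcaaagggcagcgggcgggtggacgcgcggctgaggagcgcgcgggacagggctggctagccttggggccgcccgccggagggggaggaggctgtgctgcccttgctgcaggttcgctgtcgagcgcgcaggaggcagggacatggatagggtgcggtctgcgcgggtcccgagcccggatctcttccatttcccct
Ramp3: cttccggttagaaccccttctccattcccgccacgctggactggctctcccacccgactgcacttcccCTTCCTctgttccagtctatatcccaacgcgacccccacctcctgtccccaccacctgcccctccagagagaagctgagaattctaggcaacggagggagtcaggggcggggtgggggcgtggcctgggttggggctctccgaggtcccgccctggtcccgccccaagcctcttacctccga
The Kcne3 window shown held 1 match to each core, at -204 (ETS) and -189 (SOX) counted from the start site to the first base of the match. RefSeq lists another Kcne3 start site, whose window (chr7:100178433-100178682, not shown) held 1 ETS match at -146 and no SOX match. Apln held 1 ETS match at -113, Ramp3 held 1 at -182, and Ihh held 1 SOX match at -221. Esm1 held neither in this window. Over 32841 RefSeq promoters cut to the same length, 29.5% held the ETS letters and 27.7% the SOX letters, so that a match in these windows is common. A match describes the letters only.

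Among endothelial cells, 29.3% of library 1 (exact 95% binomial interval 25.3% to 33.5%, counting error only) and 32.0% of library 2 (28.4% to 35.9%) were capillary-marked. The intervals of the libraries overlapped. Esm1 was the marker that most often carried the assignment: it was detected in 85.6% and 88.3% of these cells and had the highest count of the 4 markers in 56.2% and 66.0% of them. Cd300lg was detected in 74.0% and 75.1%, Kcne3 in 68.5% and 50.3%, and Car4 in 15.1% and 21.8%. For comparison, in mural cells, which should lack these genes, Esm1 was detected in 1.04% and 1.19% of cells, Cd300lg in 0.104% and 0.421%, and Kcne3 in 0% and 0.0702%. The median depth was 5884.5 and 5925.5 UMIs per mural cell, against 14264 and 11226 UMIs per capillary-marked cell. After each cell was thinned to 2000 UMIs, Esm1 was still detected in 47.9% and 67.2% of capillary-marked cells against 0.313% and 0.494% of mural cells, and Kcne3 in 33.6% and 21.5% against 0% and 0.0706%. Fibroblasts had more Esm1 than mural cells. It was detected in 3.56% and 5.18% of them (1040 and 2759 UMIs), and in 2.01% and 3.06% after thinning.

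Levels are given below in CPM (the UMIs of a gene in a group, scaled to a common group total of 1000000 UMIs), first for library 1 and then for library 2. The sorting genes chose the cells, so their levels are a description without a test. Esm1 stood at 534 and 638 CPM in capillary-marked cells, 46.5 and 59.1 in arterial-marked and 41.7 and 63.7 in venous-marked cells. Kcne3 was at 196 and 131 CPM in capillary-marked and 34.6 and 33.4 in venous-marked cells, and no UMI of it was found in arterial-marked cells. A count of 0 there allows up to 3.77 and 4.55 CPM (3 counts per library), so the capillary-marked level was at least 52.0 and 28.8-fold higher. Cd300lg was at 146 and 187 CPM against 3.77 and 10.6 (arterial) and 26.2 and 42.9 (venous), and Car4 at 16.8 and 25.6 CPM against 5.02 and 1.52 and 7.49 and 5.90. The general endothelial genes of the rule, Cdh5 (VE-cadherin, 1866 and 1899.9 CPM) and Pecam1 (CD31, 755 and 1103 CPM), were present in every bed, with Cdh5 at 1195 and 1367 CPM in arterial-marked and 1552 and 1674 CPM in venous-marked cells. The label of choriocapillaris endothelium therefore rests on these 4 markers plus pan-endothelial genes, and the position of a cell in the tissue was not measured.

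**Figure D1:**
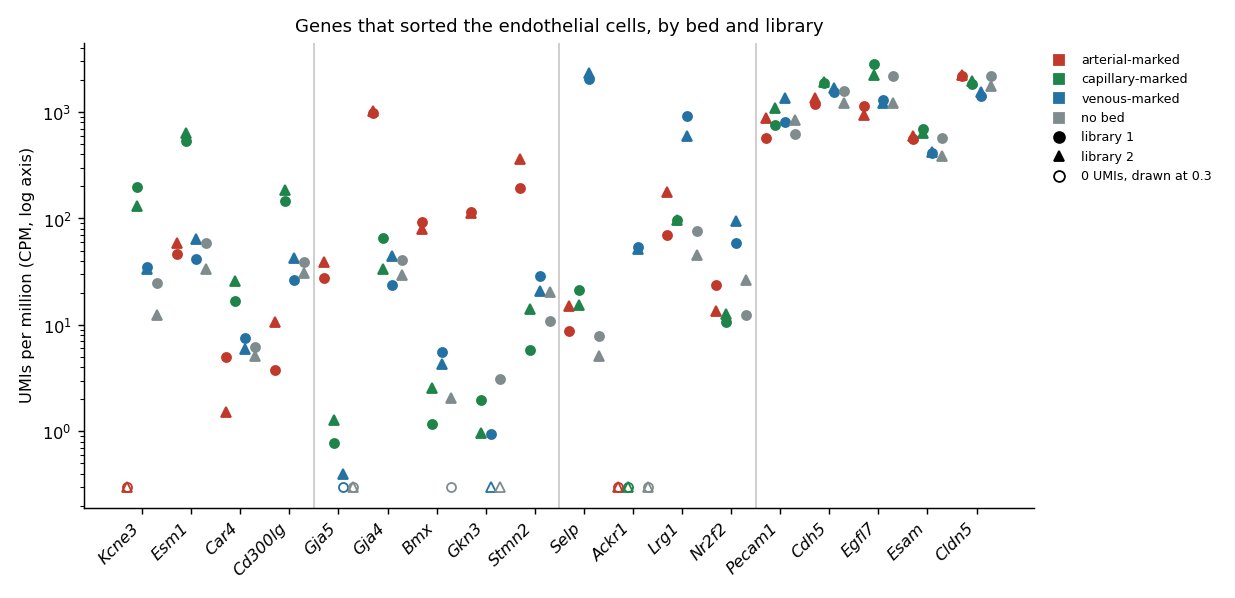
Level in CPM (log axis) of 18 genes of the sorting rule in arterial-marked, capillary-marked, venous-marked and unassigned endothelial cells. Each point is 1 library, and open points mark 0 UMIs. The first 4 genes are the capillary markers, with Kcne3 at 0 in arterial-marked cells of both libraries.

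At the edge of the rule, 15 and 23 cells had a marker sum of exactly 3 and were just inside, and 16 and 21 endothelial cells with a sum of 2 reached no bed. Plvap, which the rule did not use, was at 3097 and 2691 CPM in the cells just inside and 4711 and 3709 CPM in those just outside. Apln was at 152 and 211 CPM just inside and 154 and 139 CPM just outside, against 20.6 and 1.80 CPM in the unassigned cells with no UMI of the 4 markers. Plvap was thus higher just outside than just inside in each library, and the values of Apln on the 2 sides overlapped. The unassigned cells without any marker UMI had Plvap at 2019 and 1058 CPM.

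The capillary-marked cells were the deepest of the endothelial groups. Their median of 14264 and 11226 UMIs per cell compares with 8490 and 7089 in arterial-marked, 9718 and 9145 in venous-marked and 4408 and 4688 in unassigned cells, so depth moved with the chance to reach 3 marker UMIs. Its part in the size of the group was not tested. Summed over cells, the capillary-marked group held 2559748 and 3126935 UMIs. Scrublet called 5 and 10 of the cells as doublets. Of the cell barcodes, 31 occurred in both libraries, and none of these was capillary-marked in both.

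Markers of other cell types were unevenly spread over the beds. The 10 mural markers summed to 400.0 and 188 CPM, against 6169 and 4166 CPM in arterial-marked, 173 and 370.0 in venous-marked and 16398 and 20279.6 in mural cells. Gja4 had the most UMIs of the 5 arterial sorting genes in arterial-marked cells (783 and 682). It was also detected in 86.0% and 78.5% of mural cells, so that sort does not separate arterial endothelium from barcodes with mural RNA. Its part in the arterial contrast was not tested. The 7 RPE markers summed to 35.6 and 1249 CPM against 62.8 and 5095 (arterial) and 1042 and 1342 (venous). The 7 lymphatic markers summed to 263 and 289 CPM against 52.8 and 1208 and 151 and 217, and the lymphatic chemokine gene Ccl21a had no UMI in capillary-marked cells. The 7 fibroblast markers summed to 44.1 and 46.7 CPM, the 7 macrophage markers to 139 and 66.5 CPM and the 6 Schwann cell markers to 227 and 264 CPM. The 7 melanocyte markers summed to 532 and 579 CPM against 1696 and 142 (arterial) and 207 and 471 (venous). The 5 red cell markers summed to 5560.3 and 4366 CPM against 15.1 and 19.7 and 2858 and 2108, and a few cells held nearly all of these UMIs, with values given beside the haemoglobin genes. Free RNA, read from rod photoreceptor transcripts, was estimated at 2.39% and 3.28% of the UMIs of the group. With a stricter exclusion of other cell types (no UMI of Ptprc, Dcn or Sox10 and at most 1 mural marker UMI), 397 genes in place of 619 were lower than in arterial-marked cells. That setting tested 8061 genes in place of 9635, rule genes included, and kept 34 and 37 arterial-marked cells. Among the genes named below, the stricter exclusion ended, among others, the calls of Ctnnb1, Cx3cl1, Cxcl1, Egr1, Eng, Flt1, Gata2, Hes1, Hlx, Nr4a1, Scarb1, Tbxa2r and Vegfb against arterial-marked cells and those of Cxcl12, Ednrb, Kcnq1 and Npr1 against venous-marked cells.

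Outside the 21 genes of the rule, 9616 genes were tested in 8 sums of counts, 1 per library and endothelial group. A gene was called at an adjusted p below 0.05 (edgeR's quasi-likelihood test with Benjamini-Hochberg adjustment) together with a log2 fold change of 1 or more, up or down. Against arterial-marked cells, 466 genes were higher (4.85%) and 619 lower (6.44%) in capillary-marked cells. Against venous-marked cells, 124 were higher (1.29%) and 215 lower (2.24%). In both contrasts 75 genes were higher (0.78%) and 112 lower (1.16%). The median log2 fold change over all tested genes was 0.01 and 0.00. Of the 466 genes, 465 had the same sign in both libraries, as had all 619, 124 and 215 of the other sets. The genes were called from these same libraries, so agreement in sign was largely set by the calling and is no replication. A log2 fold change of 1 or more in the called direction in each library was seen in 361, 541, 91 and 189 genes, in that order. Without the library as a block, 7 genes were higher and 85 lower than in venous-marked cells, and with DESeq2 77 and 139. The contrasts share the capillary-marked sums, so they are not independent of each other.

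**Figure D2:**
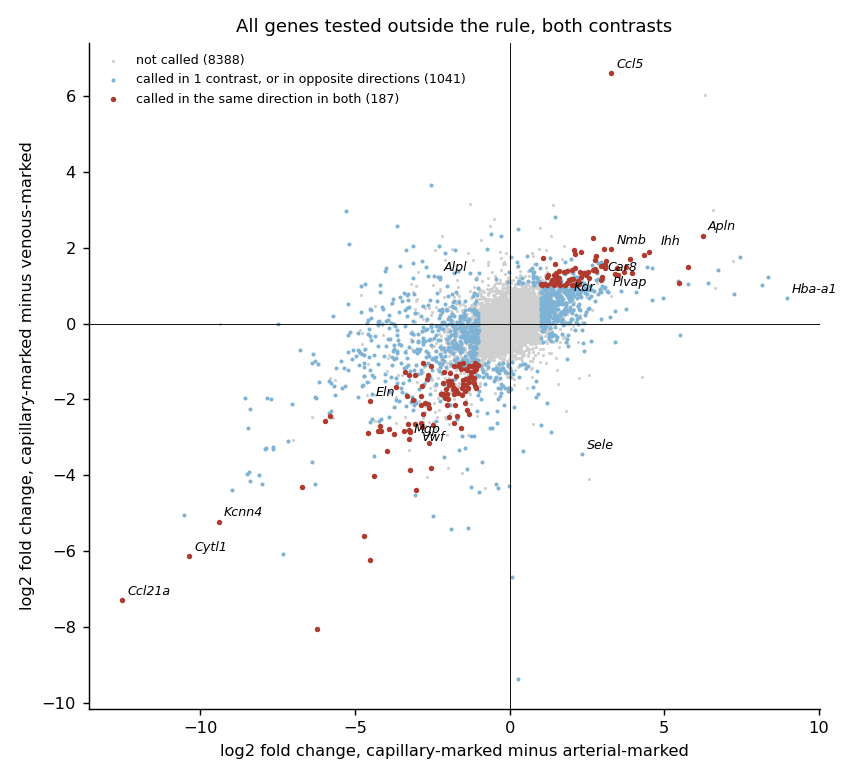
Log2 fold change of every tested gene outside the rule, capillary-marked minus arterial-marked (x) and minus venous-marked (y). Red points were called in the same direction in both contrasts (75 higher, 112 lower), blue points in 1 contrast or in opposite directions, and grey points in neither. Apln lies far right and above 0, and Sele is the only gene called higher than in arterial-marked and lower than in venous-marked cells.

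The diaphragm gene Plvap and the VEGF receptor gene Kdr were higher in the capillary-marked group than in the arterial-marked and venous-marked groups of each library. Plvap (chr8:71497765-71511752, GRCm38) was at 3389.8 and 3184 CPM in capillary-marked cells, 339 and 392.5 in arterial-marked and 1728 and 1757 in venous-marked cells, and was detected in 99.3% and 97.0% of the capillary-marked cells. The 3 beds did not overlap. The log2 difference was 3.14 ± 0.22 (SE; edgeR adjusted p = 1.26e-05) from arterial-marked cells and 0.86 ± 0.20 (SE; edgeR adjusted p = 0.0291) from venous-marked cells, the latter below the fold threshold. Kdr, the main signalling receptor for VEGF, was at 1169 and 1693 CPM against 278 and 491 (arterial) and 650.3 and 1035 (venous), a log2 difference of 1.90 ± 0.21 (SE; edgeR adjusted p = 0.000143) from the arterial and 0.72 ± 0.20 (SE; edgeR adjusted p = 0.0617) from the venous group.

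Of 9 tested VEGF ligands and receptors, 5 were higher and 3 lower than in arterial-marked cells (median log2 1.04), and 1 was lower than in venous-marked cells (median -0.28). The higher genes were all receptors: Kdr, Flt1, Flt4, Nrp1 and Nrp2. The lower genes were all ligands: Vegfa, Vegfb and Vegfc. Flt4, the receptor known for its role in lymphatic and fenestrated vessels, was at 245 and 257 CPM against 41.5 and 72.7 in arterial-marked cells, where it differed by 2.14 ± 0.28 (SE; edgeR adjusted p = 0.000623). Nrp1, a VEGF co-receptor, was at 324 and 663 CPM against 157 and 274, a difference of 1.15 ± 0.16 (SE; edgeR adjusted p = 0.000322). Flt1, the decoy receptor, differed by 1.04 ± 0.18 (SE; edgeR adjusted p = 0.00168), a call that was lost in 4 of 15 alternatives, among them the stricter exclusion of other cell types. Vegfc, a ligand of FLT4, was at 5.47 and 8.31 CPM against 59.0 and 71.2 in arterial-marked and 14.5 and 20.1 in venous-marked cells and was lower than both. Vegfa was at 38.7 and 39.0 CPM in capillary-marked cells and at 243 and 184 CPM in RPE cells.

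Of 15 diaphragm, caveola and vesicle genes, 3 were higher (Plvap, Nrp1 and Dysf) and 1 lower (Myof) than in arterial-marked cells, with a median log2 of -0.56, and Myof was also lower than in venous-marked cells (median 0.19). Dysf encodes dysferlin and Myof its relative myoferlin, both membrane repair and fusion proteins. Dysf was at 136 and 159 CPM against 26.4 and 48.5 in arterial-marked cells. Myof ran the other way, at 11.7 and 12.8 CPM against 113 and 97.0 (arterial) and 40.7 and 55.0 (venous). Cav1, the main caveolar coat gene, was at 147 and 176 CPM against 319 and 268 in arterial-marked cells, a log2 difference of -0.89 ± 0.18 (SE; edgeR adjusted p = 0.00371) that stayed under the fold threshold.

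Among the 5 tested angiopoietin and TIE genes, Angpt2 was the 1 gene called against arterial-marked cells (median log2 -0.18), and 0 were called against venous-marked cells by edgeR or DESeq2 (median 0.30), where 2 had an unadjusted edgeR p below 0.05. Angpt2, a context-dependent ligand of the receptor TEK, was at 248 and 311 CPM against 23.9 and 50.01, a log2 difference of 2.93 ± 0.46 (SE; edgeR adjusted p = 0.0108). It was at 121 and 166 CPM in venous-marked cells (0.91 ± 0.36 (SE; edgeR adjusted p = 0.285)). Tek was at 124 and 173 CPM against 142 and 191 and 146 and 207, with a log2 difference of -0.18 ± 0.18 (SE; edgeR adjusted p = 0.559) from the arterial group. Tie1, its orphan partner, was at 475 and 416 CPM against 271 and 206 in arterial-marked cells (0.90 ± 0.17 (SE; edgeR adjusted p = 0.00242)), under the fold threshold.

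Of 20 tip-cell and VEGF-responsive genes outside the rule, all tested, 10 were higher than in arterial-marked cells (median log2 1.11), and 3 were higher than in venous-marked cells (median 0.63). The others did not pass. By edgeR 0 members were called lower, also at an unadjusted p below 0.05, and DESeq2 called 0 lower than in arterial-marked and 1 lower than in venous-marked cells. Apln (chrX:48025146-48034853), which encodes the peptide apelin, was at 171 and 152 CPM in capillary-marked cells against 1.26 and 3.03 in arterial-marked and 32.8 and 29.5 in venous-marked cells. Its values did not overlap between beds, and it was found in 47.3% and 35.0% of the capillary-marked cells. The log2 difference was 6.24 ± 0.35 (SE; edgeR adjusted p = 9.87e-07) from the arterial group, which held only 1 and 2 UMIs, and 2.32 ± 0.18 (SE; edgeR adjusted p = 1.53e-05) from the venous group. Both calls were kept in 15 of 15 alternatives. Aplnr, its receptor, was at 35.2 and 25.9 CPM against 6.28 and 4.55 (arterial) and 22.0 and 27.9 (venous), higher than the arterial group only.

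Ramp3 (chr11:6658521-6677475), which modifies the adrenomedullin receptor, was at 836 and 681 CPM against 107 and 112 and 294 and 245. It differed by 2.77 ± 0.30 (SE; edgeR adjusted p = 0.000488) from arterial-marked and by 1.44 ± 0.27 (SE; edgeR adjusted p = 0.0175) from venous-marked cells, and the latter call was lost in 2 of 15 alternatives. Igfbp3, an IGF-binding protein gene that VEGF induces, was at 2254 and 2603 CPM against 541 and 877 in arterial-marked cells (1.76 ± 0.35 (SE; edgeR adjusted p = 0.0267)) and 1374 and 1263 in venous-marked cells (0.82 ± 0.34 (SE; edgeR adjusted p = 0.305)). Rgcc, a capillary cell cycle regulator, was at 763 and 535 CPM against 285 and 199 and 307 and 346. Unc5b, a netrin receptor, was at 53.9 and 54.0 CPM, close to the 47.7 and 57.6 of arterial-marked cells and above the 12.6 and 17.7 of venous-marked cells (1.76 ± 0.26 (SE; edgeR adjusted p = 0.00145)). Dll4, the Notch ligand of tip and arterial cells, was not called in either contrast, with 165 and 229 CPM against 119 and 135 and 68.8 and 111.

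**Figure D3:**
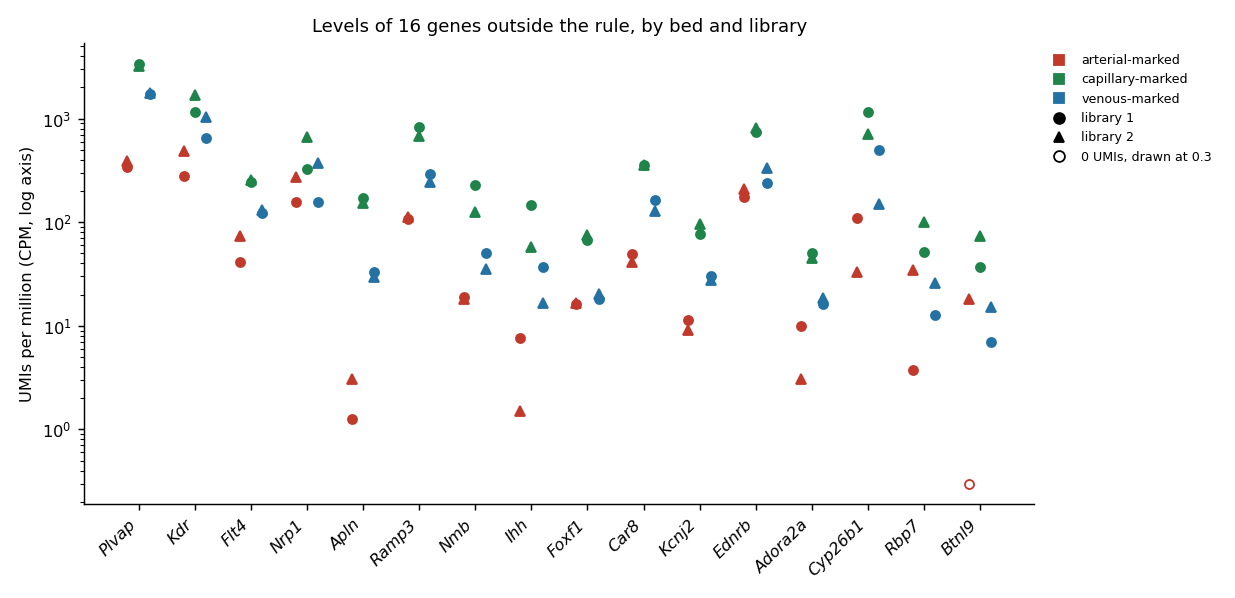
Level in CPM (log axis) of 16 genes outside the rule in arterial-marked, capillary-marked and venous-marked cells. Each point is 1 library, and the open point marks 0 UMIs. Apln, Ihh, Foxf1, Plvap and Kdr in capillary-marked cells lie above both other beds in both libraries. Of these, Apln, Ihh, Plvap and Kdr lie closer to the venous-marked cells than to the arterial-marked ones.

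Ihh (chr1:74945315-74951672), the hedgehog ligand Indian hedgehog, was at 148 and 57.2 CPM in capillary-marked cells against 7.54 and 1.52 in arterial-marked and 36.5 and 16.5 in venous-marked cells. The libraries differed in level, yet the beds did not overlap. Its log2 difference was 4.52 ± 0.42 (SE; edgeR adjusted p = 2.96e-05) and 1.87 ± 0.25 (SE; edgeR adjusted p = 0.000941), in that order, and it was found in 34.2% and 23.4% of the capillary-marked cells. In mural, fibroblast and RPE cells Ihh stayed at 0.497 and 0.551, 0.0886 and 0.132 and 0.226 and 0.0521 CPM.

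Nmb, which encodes the peptide neuromedin B, was at 230.1 and 125 CPM against 18.8 and 18.2 and 50.1 and 35.4, with log2 differences of 3.27 ± 0.38 (SE; edgeR adjusted p = 0.000551) and 1.95 ± 0.27 (SE; edgeR adjusted p = 0.00438). Foxf1, a forkhead factor known from lung capillaries, was at 68.0 and 75.2 CPM against 16.3 and 16.7 and 18.3 and 20.4, with differences of 2.11 ± 0.32 (SE; edgeR adjusted p = 0.000609) and 1.83 ± 0.25 (SE; edgeR adjusted p = 0.00094). Plxnc1, a semaphorin receptor, was at 20.3 and 40.9 CPM against 1.26 and 1.52 and 4.68 and 12.2. Tbxa2r, the thromboxane receptor, was at 36.3 and 27.8 CPM against 11.3 and 1.52 and 11.7 and 5.50, and Unc13a, a vesicle priming gene known from synapses, at 16.8 and 19.2 CPM against 1.26 and 3.03 and 2.81 and 5.90. Btnl9 and Rbp7, genes of general capillary endothelium (Rbp7 binds retinol), were at 37.1 and 73.9 and 51.2 and 100.4 CPM against 7.02 and 15.3 and 12.6 and 26.0 CPM in venous-marked cells. All of these were called higher against both beds. The libraries disagreed in the arterial-marked level of Rbp7 (3.77 and 34.9 CPM) and of Btnl9 (0 and 18.2 CPM).

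The following 3 genes were chosen after their values were seen. Cyp26b1 (chr6:84571414-84593908), which degrades retinoic acid, was at 1145 and 716 CPM against 109 and 33.3 in arterial-marked and 495 and 149.8 in venous-marked cells, with log2 differences of 3.90 ± 0.30 (SE; edgeR adjusted p = 4.14e-05) and 1.70 ± 0.25 (SE; edgeR adjusted p = 0.00438). Its beds did not overlap either. Rgs9, a G protein regulator, was at 117 and 177 CPM against 6.28 and 28.8 and 34.6 and 56.2. Kcnk5, a background potassium channel, was at 116 and 161 CPM against 16.3 and 9.09 and 49.2 and 58.6.

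Of 24 tested endothelial transcription factors, 5 were higher (Foxf1, Gata2, Hlx, Meox1 and Prdm1) and 3 lower (Foxc2, Nr2f1 and Tbx3) than in arterial-marked cells (median log2 0.30), and 2 were higher (Foxf1 and Gata2) than in venous-marked cells (median 0.13). Prdm1 was at 179 and 249 CPM against 33.9 and 34.9 and 78.7 and 131, just under the fold threshold from the venous group (0.98 ± 0.21 (SE; edgeR adjusted p = 0.0177)). Gata2 was at 52.7 and 129.5 CPM against 35.2 and 47.0 and 27.2 and 58.6, and its calls were lost in 5 of 15 alternatives against arterial-marked and in 6 of 15 against venous-marked cells. Tbx3 was at 19.9 and 16.3 CPM against 158 and 102 in arterial-marked cells.

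Of 19 BMP, ALK1 and TGF-beta genes, 3 were higher and 5 lower than in arterial-marked cells (median log2 -0.14), and 1 was higher than in venous-marked cells (median 0.12). Smad6, an inhibitor of BMP signalling, was the gene higher than in both, at 369.6 and 365 CPM against 156 and 203 and 178 and 167, with the call against arterial-marked cells lost in 7 of 15 alternatives. Tmem100, a target of this pathway in arteries, was at 7.81 and 10.9 CPM against 60.3 and 51.5 in arterial-marked cells (-2.63 ± 0.35 (SE; edgeR adjusted p = 0.000252)).

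Genes of ion and carbon dioxide handling were called in both directions. Of 17 tested carbonic anhydrase, ion channel and water channel genes outside the rule, 4 were higher than in arterial-marked cells and the same 4 higher than in venous-marked cells: Car2, Car8, Kcnj2 and Kcnq1. A further 4 were lower than in arterial-marked (Kcne4, Kcnn4, Slc4a4 and Trpv4) and 1 lower than in venous-marked cells (Kcnn4). The median log2 was -0.03 and -0.22, and it stayed the same with Kcnn4, which had 0 UMIs, set to its bound. Car8, a carbonic anhydrase-related protein that lacks the enzyme activity, was at 353 and 354 CPM against 49.0 and 40.9 and 163 and 129, a log2 difference of 2.98 ± 0.21 (SE; edgeR adjusted p = 2.74e-06) and 1.24 ± 0.17 (SE; edgeR adjusted p = 0.000941). Car2, a cytosolic carbonic anhydrase, was at 33.2 and 32.3 CPM against 16.3 and 4.55 and 11.7 and 12.2. Its calls were kept in 12 of 15 alternatives against arterial-marked and 13 of 15 against venous-marked cells. Both were lost with DESeq2 and without the library block. With DESeq2, 3 genes of this list were higher than in arterial-marked and 2 higher than in venous-marked cells.

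Kcnj2, the inward rectifier potassium channel Kir2.1, was at 77.4 and 95.3 CPM against 11.3 and 9.09 and 30.4 and 27.5, with log2 differences of 3.08 ± 0.45 (SE; edgeR adjusted p = 0.00120) and 1.53 ± 0.30 (SE; edgeR adjusted p = 0.0161). Kcnq1, whose channel can pair with the Kcne3 subunit, was at 53.9 and 63.3 CPM against 13.8 and 15.2 and 29.5 and 26.0, and its call against venous-marked cells was lost in 4 of 15 alternatives. Kcnn4, a calcium-activated potassium channel of endothelial vasodilation, had no UMI in capillary-marked cells, against 38.9 and 60.6 CPM in arterial-marked cells. With 3 counts per library as the limit that 0 allows, it was at least 33.2 and 63.2-fold higher in the arterial group and at least 2.40 and 2.46-fold higher in the venous group. Trpv4, a calcium channel, was at 1.17 and 0.959 CPM against 30.1 and 30.3 in arterial-marked cells, and Kcne4, which mural cells held at 282 and 372 CPM, at 5.86 and 1.92 against 69.1 and 59.1.

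Of 18 genes of nitric oxide, endothelin and vasoactive peptides, 4 receptor genes were higher against both beds: Adora2a, Ednrb, Npr3 and Ramp3. DESeq2 called 3 genes of the list higher than in arterial-marked and 2 higher than in venous-marked cells. Against arterial-marked cells 5 were lower (Ace, Edn1, Gucy1a1, Gucy1b1 and Ptgis), and against venous-marked cells 3 (Npr1, Ptgis and Ptgs1). The median log2 was 0.26 and -0.07. Ednrb, the endothelin B receptor, was at 748 and 819 CPM against 175 and 211 and 241 and 332, and the call against venous-marked cells (1.40 ± 0.21 (SE; edgeR adjusted p = 0.00220)) was lost in 4 of 15 alternatives. Adora2a, an adenosine receptor, was at 50.005 and 44.8 CPM against 10.0 and 3.03 and 16.4 and 18.5, and its call against venous-marked cells was lost in 3 of 15 alternatives. Ptgis, the prostacyclin synthase gene, was at 1.95 and 6.08 CPM against 38.9 and 39.4 and 68.8 and 48.8. Nos3, the endothelial nitric oxide synthase gene, was at 184 and 221 CPM against 409.5 and 371 in arterial-marked cells, a log2 difference of -0.96 ± 0.16 (SE; edgeR adjusted p = 0.00113) under the fold threshold. The genes of the nitric oxide receptor, Gucy1a1 and Gucy1b1, were at 151 and 86.4 and 85.4 and 68.2 CPM in arterial-marked cells and at 535 and 581 and 332 and 387 CPM in mural cells.

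Of 20 arterial genes, all tested, 10 were lower and 1 higher (Nrp1) than in arterial-marked cells (median log2 -1.29), while against venous-marked cells 4 were higher and 5 lower (median 0.01). Of 20 venous genes, 8 were lower than in venous-marked cells (median -1.04), and 4 were higher and 4 lower than in arterial-marked cells (median 0.33). These lists were chosen to mark the beds with which the cells were compared, so their direction against that bed is no independent evidence.

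Some arterial genes lay between the beds, and 8 genes in all were called lower than in arterial-marked and higher than in venous-marked cells. Hey1, a Notch target of arteries, was at 30.9 and 37.1 CPM against 61.6 and 105 (arterial) and 7.96 and 18.9 (venous). Sema3g was at 28.5 and 50.2 CPM against 87.9 and 186 and 9.36 and 21.2, and Alpl, a phosphatase of arterioles, at 26.6 and 30.4 CPM against 139 and 138 and 7.96 and 15.3. Cxcl12, a chemokine, was not called against arterial-marked cells (298 and 406 and 452 and 483 CPM) and was higher than in venous-marked cells (140.0 and 160.4 CPM, 1.16 ± 0.17 (SE; edgeR adjusted p = 0.00145)).

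Other genes of large vessels were lowest in the capillary-marked cells. Mgp, which inhibits calcification of the vessel wall, was at 915 and 555 CPM against 7043 and 6196 in arterial-marked and 8353 and 3665 in venous-marked cells. Eln, the elastin gene, was at 8.99 and 10.6 CPM against 271 and 180.3 and 39.8 and 38.9, and Fbln5, which takes part in elastic fibre assembly, at 12.1 and 7.68 CPM against 119 and 171 and 54.8 and 76.3. Vwf, the von Willebrand factor gene, was at 67.2 and 65.6 CPM against 227 and 230.3 and 425 and 358, with log2 differences of -1.80 ± 0.19 (SE; edgeR adjusted p = 4.76e-05) and -2.62 ± 0.19 (SE; edgeR adjusted p = 8.24e-06). Jag1, an arterial Notch ligand, was at 23.0 and 24.3 CPM against 119 and 81.8 and 42.1 and 69.2. All 5 were called lower against both beds.

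Of 15 tested leukocyte adhesion genes, 4 were lower than in venous-marked cells (median log2 0.10): Cxcl1, Icam1, Sele and Vcam1. At an unadjusted edgeR p below 0.05, 5 members lay lower and 5 higher than in venous-marked cells, and none of the latter was called by edgeR or DESeq2. Against arterial-marked cells 2 were higher (Cx3cl1 and Sele) and 1 lower (Cxcl1), with a median of 0.03. Sele, the E-selectin gene, was at 39.8 and 61.7 CPM, between 11.3 and 7.58 in arterial-marked and 362 and 738 in venous-marked cells, with log2 differences of 2.34 ± 0.32 (SE; edgeR adjusted p = 0.000304) and -3.45 ± 0.20 (SE; edgeR adjusted p = 1.03e-06). Icam1 was at 352 and 378 CPM against 832 and 754 in venous-marked cells (-1.18 ± 0.19 (SE; edgeR adjusted p = 0.00249)), and Vcam1 at 35.9 and 40.9 CPM against 888 and 812 (-4.52 ± 0.65 (SE; edgeR adjusted p = 0.0448)).

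Basement membrane and matrix genes were called in both directions against arterial-marked cells. Of 24 tested, 8 were higher and 6 lower than in arterial-marked cells (median log2 0.34), and 2 were lower (Fbln5 and Fn1) than in venous-marked cells (median 0.36). Timp3, the matrix metalloproteinase inhibitor that is stored in Bruch's membrane and also blocks KDR, was at 6529 and 8604 CPM against 1729.7 and 2496 (arterial, 1.83 ± 0.20 (SE; edgeR adjusted p = 0.000299)) and 3368 and 4613 (venous, 0.87 ± 0.20 (SE; edgeR adjusted p = 0.0316)). It was at 2654 and 2950.1 CPM in RPE cells. Nid1 (nidogen) was at 207 and 315 CPM against 49.0 and 74.3, Col4a1 and Col4a2 (type IV collagen) at 1423 and 2118 and 833 and 1146 against 726 and 811 and 387 and 435, and Col15a1 at 134 and 173 against 32.7 and 42.4 in arterial-marked cells. Fn1, the fibronectin gene, was at 14.5 and 7.04 CPM against 241 and 100.0 and 116 and 89.6, and both of its calls were lost under the stricter exclusion of other cell types.

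Of 17 tested barrier genes of brain and retinal vessels, 1 was higher (Itm2a) and 6 lower (Foxq1, Lsr, Mfsd2a, Ocln, Slco1a4 and Spock2) than in arterial-marked cells (median log2 -0.29), and 4 were lower (Abcg2, Lsr, Ocln and Slco1a4) than in venous-marked cells (median -0.35). Ocln, the tight junction gene occludin, was at 2.34 and 5.12 CPM against 17.6 and 27.3 and 13.1 and 20.8. Slco1a4, an organic anion carrier, was at 51.2 and 53.7 CPM against 116 and 109 and 142 and 173. Slc2a1, the glucose carrier GLUT1, was not called, with 548 and 412 CPM against 540.1 and 482 and 600.2 and 473. Itm2a was at 629 and 561 CPM against 127 and 77.3 in arterial-marked cells.

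Of 14 tested Wnt and norrin genes, 2 were higher (Ctnnb1 and Fzd4) and 1 lower (Fzd6) than in arterial-marked cells (median log2 0.25), and Fzd6 was the 1 gene called, lower, against venous-marked cells (median 0.21). Fzd4, the norrin receptor, was at 231 and 312 CPM against 71.6 and 123 and 128 and 181. Of 15 Notch genes, 3 were higher and 4 lower than in arterial-marked cells (median 0.19), and 2 were higher (Hey1 and Nrarp) and 1 lower (Jag1) than in venous-marked cells (median 0.50). The higher calls of Mfng, Lfng and Hes1 were lost in 7, 4 and 2 of 15 alternatives, and DESeq2 called 1 gene of this list higher. Under the stricter exclusion of other cell types, with 13 tested, 1 was higher and 2 lower than in arterial-marked cells. Notch3 and Heyl, 2 of those lower than in arterial-marked cells, were at 385 and 468 and 139.7 and 144 CPM in mural cells. Hes1, a Notch target, was at 894 and 673 CPM against 347 and 306 and 505 and 384.

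Coagulation genes were also among those called. Tfpi, the tissue factor pathway inhibitor gene, was higher than in arterial-marked cells, Plat and Procr were lower than in arterial-marked cells, and F8 was lower than in venous-marked cells. Procr, the endothelial protein C receptor gene, was at 137 and 124 CPM against 951 and 600.1 in arterial-marked and 2182 and 1789 in mural cells, and its call was lost under the stricter exclusion of other cell types.

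Of 12 flow-responsive genes, 4 were lower than in arterial-marked cells (median log2 -1.13), and 1 was higher (Alpl) and 2 lower (Cyp1b1 and Vcam1) than in venous-marked cells (median -0.31). Klf2, a factor that flow induces, was at 411 and 543 CPM against 1544 and 1167 (arterial, -1.50 ± 0.19 (SE; edgeR adjusted p = 0.000272)) and 1017 and 780.1 (venous, -0.95 ± 0.19 (SE; edgeR adjusted p = 0.0118)). Of 15 immediate early and heat shock genes, 4 were lower than in arterial-marked cells (Atf3, Egr1, Fosb and Nr4a1, median -0.59), and 0 were called against venous-marked cells by edgeR or DESeq2 (median 0.17), where 4 were higher and 1 lower at an unadjusted edgeR p below 0.05. Of 9 cell cycle genes, 0 were called in either contrast by edgeR or DESeq2, and 1 in each contrast was higher at an unadjusted edgeR p below 0.05 (medians -0.02 and -0.21).

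**Figure D4:**
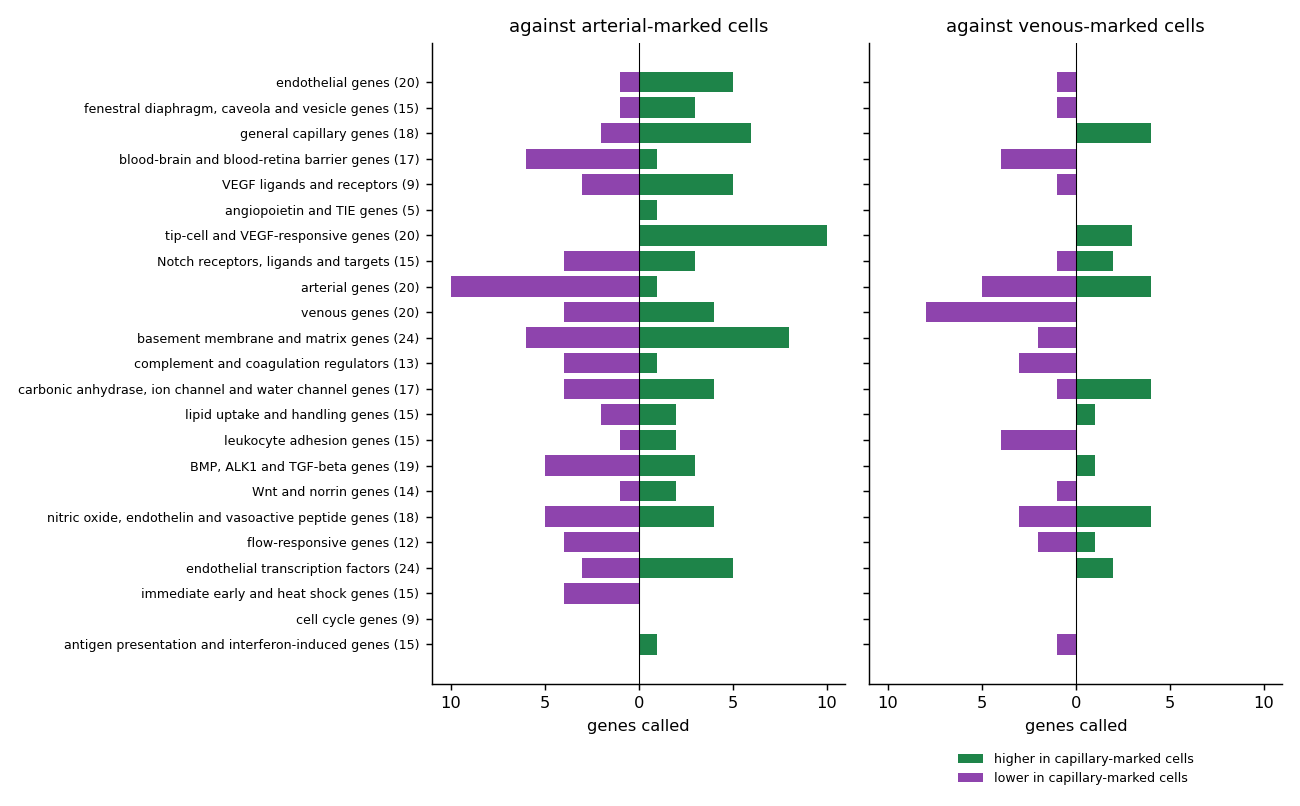
Number of genes called higher (green, right) or lower (purple, left) in capillary-marked cells against arterial-marked and venous-marked cells, for 23 gene lists with the number tested in parentheses. The called tip-cell and VEGF-responsive genes were higher (10 and 3 of 20), and 10 of 20 arterial and 8 of 20 venous genes were lower against the bed they mark. The cells were sorted on the tip-cell gene Esm1 and on markers of the beds, so these directions are no independent evidence.

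The genes with the lowest levels against both beds included several near 0. Cytl1, a secreted cytokine-like gene, had 1 and 0 UMIs in capillary-marked cells against 382 and 274 CPM in arterial-marked and 27.2 and 8.65 CPM in venous-marked cells. Inhba, an activin subunit, had 0 UMIs against 26.2 and 13.0 CPM in venous-marked cells, at least 22.4 and 13.5-fold higher there. Mme (neprilysin) had 0 and 1 UMIs against 17.8 and 18.1 CPM in venous-marked cells, Lcn2 had 0 and 5 UMIs against 57.6 and 33.8 CPM, and Rem1 and Rprml had at most 2 UMIs in either library. Ccl21a had 0 UMIs in capillary-marked cells, but its arterial-marked level of 0 and 788 CPM came from library 2 alone, the library in which lymphatic markers were high in that bed.

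The calls of Ccl5 and of the haemoglobin genes rested on a few cells. Ccl5, a chemokine of T and NK cells, headed the list of genes higher than in both beds with 395 and 5.44 CPM, and 1 cell held 99.8% of its UMIs in library 1 and 1 cell 88.2% in library 2. The T and NK cell markers summed to 0.391 and 2.56 CPM. Leaving out doublets called by Scrublet turned its difference from arterial-marked cells to -2.16, and a minimum of 5 marker UMIs turned it to -4.78. The 4 haemoglobin genes tested were called higher than in arterial-marked cells, with Hbb-bs at 4113 and 3533 CPM against 11.3 and 16.7, and 3 of 146 and 4 of 197 cells held 99.9% and 99.5% of the haemoglobin UMIs of the group. In the remaining cells haemoglobin stood at 8.51 and 24.3 CPM, against 15.1 and 19.7 CPM in arterial-marked cells, and 1 venous-marked cell in each library held 99.4% and 99.1% of the UMIs there. With such cells left out, the difference of Hbb-bs from arterial-marked cells was -0.24.

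The capillary-marked cells were not uniform. Fabp4, a fatty acid-binding protein gene of capillaries in muscle, heart and fat, stood at 188 and 497 CPM in the group, but 12 of 146 and 21 of 197 cells with at least 5 UMIs held 94.8% and 99.2% of its UMIs. This split was chosen after the values were seen and is a description without a test. Cd36, the fatty acid translocase gene, was at 259.8 and 353 CPM in the Fabp4-marked cells and 4.32 and 2.59 CPM in the others. Timp4 was at 28.4 and 74.0 against 0 and 0.369 CPM, Sparcl1 at 706 and 1100.1 against 352 and 369 CPM, Gpihbp1, which carries lipoprotein lipase to the capillary lumen, at 179 and 441 against 106 and 132 CPM, and Ly6c1 at 572 and 616 against 302 and 275 CPM. Lpl, the lipase gene, separated the cells in library 2 only, at 4.06 and 143 against 3.89 and 1.48 CPM.

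The same few cells had lower levels of several genes that set the capillary-marked group apart. Plvap was at 2175 and 2191 CPM in the Fabp4-marked and 3519 and 3337 CPM in the other capillary-marked cells. Apln was at 64.9 and 85.9 against 182 and 162 CPM, Car8 at 150.2 and 153 against 375 and 386 CPM, and Foxf1 at 16.2 and 45.3 against 73.5 and 79.8 CPM. Kdr was also lower within each library (1027 and 1546 against 1184 and 1715 CPM). Cd300lg was lower in library 1 and higher in library 2 (129.9 and 217 against 148 and 182 CPM). Kcne3 was lower in library 1 and level in library 2 (69.0 and 131 against 209.7 and 131 CPM). Rbp7, which was called higher than in both beds, ran the other way, at 77.1 and 203 against 48.4 and 84.6 CPM. Btnl9 was lower in library 1 and higher in library 2 (4.06 and 81.1 against 40.6 and 72.8 CPM). The Fabp4-marked cells had a median of 18376.5 and 15036 UMIs (others 13285 and 10540), and a minimum of 5 UMIs favours deep cells. In the shallower 73 and 99 capillary-marked cells Fabp4 was at 262 and 855 CPM, and in the deeper cells at 168 and 411 CPM. With these cells left out, an alternative added after seeing the data, the calls lost included those of Ednrb, Kcnn4, Kcnq1, Lpl and Vegfc against venous-marked cells and of Klf2, Mfng, Egr1 and Nr4a1 against arterial-marked cells. Fabp4 was not called against either bed (299 and 588 CPM in arterial-marked and 98.3 and 603 in venous-marked cells), nor was Cd36. Among the lipid uptake and handling genes, Abcg1 and Scarb1 were higher than in arterial-marked cells and Lpl was higher than in venous-marked cells. Lpl was lower than in arterial-marked cells, with a log2 difference of -1.76 ± 0.38 (SE; edgeR adjusted p = 0.00612). The stricter exclusion of other cell types turned this to 6.79 ± 2.17 (SE; edgeR adjusted p = 0.0349).

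Cells with at least 5 Fabp4 UMIs were also found in the other endothelial groups: 9 and 7 arterial-marked, 9 and 20 venous-marked and 8 and 17 unassigned cells. Cd36 was at 5.30 and 459 CPM in such arterial-marked cells and 0 and 293 CPM in the venous-marked ones. In the unassigned ones Cd36 was at 116 and 1227 CPM, the former from 5 UMIs. Fabp4-marked cells with Cd36 were thus found outside the capillary-marked group. For the arterial-marked and venous-marked cells this rested on library 2, since library 1 held 1 and 0 UMIs of Cd36 there. Rbp7 had 3 and 18 UMIs in the arterial-marked cells with at least 5 Fabp4 UMIs, against 0 and 5 in the other arterial-marked cells. Whether the Fabp4-marked cells lay in the choriocapillaris was not measured.

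**Figure D5:**
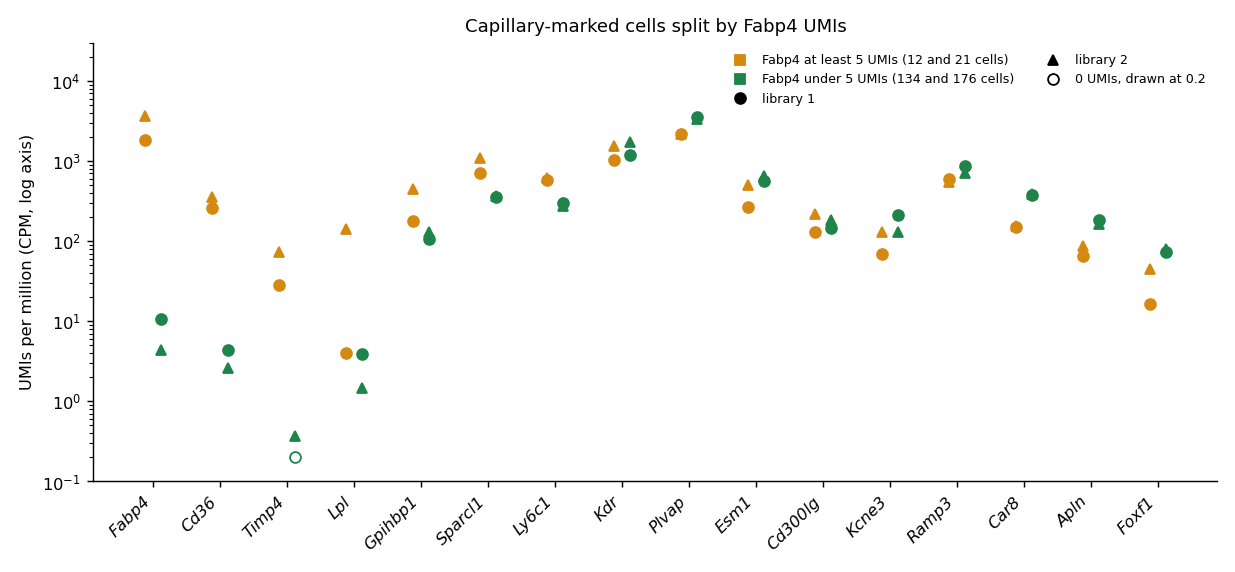
Level in CPM (log axis) of 16 genes in capillary-marked cells with at least 5 Fabp4 UMIs (orange, 12 and 21 cells) and with fewer (green, 134 and 176 cells). Each point is 1 library, and the open point marks 0 UMIs. Cd36 and Timp4 follow Fabp4, while Plvap, Car8, Apln and Foxf1 lie lower in the Fabp4-marked cells.

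Of 18 tested general capillary genes outside the rule, 6 were higher (Btnl9, Emcn, Kdr, Meox1, Rbp7 and Rgcc) and 2 lower (Lpl and Timp4) than in arterial-marked cells (median log2 0.52), and 4 were higher (Btnl9, Cxcl12, Lpl and Rbp7) than in venous-marked cells (median 0.95). Under the stricter exclusion of other cell types 9 were higher and 0 lower than in arterial-marked cells and 9 higher than in venous-marked cells. The arterial contrast of Lpl turned to 6.79 ± 2.17 (SE; edgeR adjusted p = 0.0349). That of Timp4 turned to 5.96 ± 2.37 (SE; edgeR adjusted p = 0.101) and was not called. Only 34 and 37 arterial-marked cells remained in that setting, and the errors are wide. Emcn, the endomucin gene of capillaries and veins, was at 1617 and 1462 CPM against 570.3 and 402 (arterial, 1.67 ± 0.15 (SE; edgeR adjusted p = 1.47e-05)) and 1306 and 1184 (venous, 0.25 ± 0.14 (SE; edgeR adjusted p = 0.424)). Of 20 endothelial genes outside the rule, all tested, 5 were higher (Emcn, Eng, Flt1, Kdr and Robo4) and 1 lower (Vwf) than in arterial-marked cells (median 0.50), and Vwf was also lower than in venous-marked cells (median 0.21).

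Levels also moved with the marker that was detected. Capillary-marked cells with a Kcne3 UMI had Plvap at 3732 and 3471 CPM and Fabp4 at 46.5 and 106 CPM, and those without had Plvap at 2273 and 2649.5 and Fabp4 at 651 and 1226 CPM. Apln was at 199 and 179 CPM with and 81.5 and 101 CPM without a Kcne3 UMI. Cells in which Esm1 was not detected (21 and 23 cells) had Fabp4 at 612 and 4688 CPM against 147 and 169 CPM in those with Esm1, whereas Plvap was at 3695 and 2322 against 3360.1 and 3251 CPM. Cells with a Kcne3 UMI were also deeper, with medians of 17359 and 17984 UMIs against 10114.5 and 8038, and the part of depth in these differences was not tested. Between the deeper and the shallower capillary-marked cells of a library, Plvap was at 3340.2 and 3139 and 3571 and 3370.4 CPM.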

How the data were processed

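Cells of 2 droplet libraries (10x Chromium 3′ chemistry) were analysed. The authors deposited unfiltered matrices of UMI counts per gene and barcode (1959894 and 1856693 barcodes). Their software was Cell Ranger: the file headers name version 4, whereas version 2.1.1 and the build mm10 come from the submitters' processing notes. Which gene models they counted on is not known from these sources. A barcode was kept as a cell with 1000 UMIs, 500 genes and no more than 20% of UMIs from mitochondrial genes. The bed was the strictly largest marker sum of at least 3 UMIs.

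Counts were summed per library and endothelial group and compared in R 4.3.3 by edgeR 4.0.16 with limma 3.58.1, with filterByExpr, TMM scaling, a library block and robust quasi-likelihood dispersions, 3 residual degrees of freedom. Benjamini-Hochberg adjustment was over all genes tested, and the 21 rule genes were then left out of the counts of calls. CPM levels use raw UMI totals, and log2 differences the TMM scale. Each SE was obtained by dividing the absolute log2 difference by the square root of its F statistic. The p-values measure only how differences vary between 2 pools of mice. The block follows from the design, since all groups of a library come from the same animals. Deviations of the libraries from the group mean correlated between groups with r of 0.417 to 0.778 over 3737 genes, which are not independent replicates. The fit was tested on simulated data for each contrast over 9105 genes, and all 4-fold changes passed the adjusted p. Of 2-fold changes, 60% to 68% passed against arterial-marked and 74% to 86% against venous-marked cells. Changes were put only into genes with a minimum expected count in the smallest sum. The simulation used the same dispersion for all genes and no library effect, so these shares do not cover genes with few UMIs. Doublets were scored with Scrublet in scanpy 1.11.5 (Python 3.11.15) and left in, except in an alternative. Free RNA was estimated from rod markers against barcodes with at most 100 UMIs and left in. Bed members, gene lists and tests were chosen with earlier results of these data known. Named genes were the rule genes, up to 3 called genes per list, contrast and direction, and the 10 higher and 10 lower than both beds with the largest smaller change. Genes named with values outside this rule (Rgcc, Cd36, Fabp4, Gpihbp1, Tek, Tie1, Dll4, Slc2a1, Nos3, Cav1, Cyp26b1, Rgs9, Kcnk5 and others) were chosen after their values were seen. Gene positions come from GENCODE M21 (GRCm38), which held 99.6% of the 32285 gene IDs. Promoter sequences come from RefSeq (GRCm38.p6), and Cd300lg, Foxf1 and Plvap were not matched there. A few results of the fixed gene lists are not reported here.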

Additional observations from a re-analysis of the deposited data

How the results depend on the processing

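The comparisons were repeated with other settings, of which 3 were added after seeing the data (lymphatic-marked, Fabp4-marked or haemoglobin-marked cells left out). Of the values of single genes in the fits with a test, 4051 kept their call or stayed without one, 246 lost the call, 78 gained it and 7 reversed. With DESeq2 in place of edgeR, 77 genes were higher and 139 lower than in venous-marked cells, and 46 were higher than both beds. Without the replicate block, 7 were higher and 85 lower than in venous-marked cells, and 4 higher and 45 lower than both beds. With the stricter exclusion of other cell types, 397 were lower than in arterial-marked cells, 211 higher than in venous-marked cells and 117 higher than both. That setting tested 8061 genes, against 9635 in the main fit, rule genes included. With cells thinned to 2000 UMIs, 301 were higher and 344 lower than in arterial-marked and 204 higher than in venous-marked cells, over 5183 genes tested. With a minimum of 5 marker UMIs, the share of endothelial cells that were capillary-marked was 24.2%, against 30.6% ± 1.96 (SD, n = 2), and leaving out each library gave 29.3% to 32.0%. The reversed values were those of Ccl5 against arterial-marked cells (-4.78 at 5 marker UMIs and -2.16 without doublets) and against venous-marked cells (-1.45 at 5 marker UMIs), of Hbb-bs without haemoglobin-marked cells (-0.24), and of Il1r1 (0.23), Lpl (6.79) and Timp4 (5.96) against arterial-marked cells under the stricter exclusion. The SE under that exclusion was 2.17 for Lpl and 2.37 for Timp4, with 34 and 37 arterial-marked cells left. For Hbb-bs the cells that carried the UMIs were left out by construction, and for the other changes the cause was not tested. With 1 library left out no residual degrees of freedom remain, so the fold changes were values without a test. Of these, 539 moved by no more than 1 SD between libraries and 61 by more. That SD came from the same single-library values, so most fall within it by construction, and these numbers do not measure stability. The number of arterial-marked cells (69 and 65) limits that contrast.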
